A study of Drosophila melanogaster with 5 samples.

Results

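Chromatin regions with an accessibility peak in progenitor cells and in enterocytes (ECs) of the adult Drosophila midgut, but with none in enteroendocrine cells (EEs), are described here. Peak lists from ATAC-seq of 5 sorted populations were used, with 1 library each. Overlapping or touching peaks on chromosomes 2, 3, 4 and X were merged over the 5 lists into 15196 regions. Of these, 1503 (9.89%) had a peak in progenitor cells and in ECs and none in EEs, and these are called the members. The members were therefore chosen by the presence or absence of a peak in these 3 lists, and their ranks in the progenitor and EC lists are given as a description only. Their position and their sequence played no part in the choice. The peaks of the depleted cells were not asked for, but they took part in the merging and could join neighbouring peaks into 1 region. A merging without the depleted lists was not run.

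The first population was Pros-depleted EEs (prosV1-Gal4ts UAS-GFP with UAS-pros-RNAi), in which the homeodomain transcription factor Prospero was knocked down. The second was Ttk-depleted ECs (Myo1A-Gal4ts UAS-GFP with UAS-ttk-RNAi and pros-mCherry), sorted as GFPweak mCherry+ cells, in which the zinc finger repressor Tramtrack was knocked down. The other populations were normal progenitor cells (esg-Gal4ts UAS-GFP), ECs (Myo1A-Gal4ts UAS-GFP) and EEs (prosV1-Gal4ts UAS-GFP). All carried a temperature-sensitive Gal4 system with UAS-GFP. Per the study's methods, female flies aged 5 to 7 days were shifted to 29 °C for 7 days, and about 40000 cells were sorted from 100 to 150 guts. Each driver marks a pool of cells, since esg is active in stem cells and enteroblasts alike, and per the paper Myo1A-Gal4 was also active in some enteroblasts. The peak names of the progenitor list carry the mark "5w", those of ECs "rep1" and those of EEs and Pros-depleted EEs "rep2", which the sources used here do not explain. Other replicates that these marks may point to were not analysed here.

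In the midgut epithelium, intestinal stem cells renew themselves and give rise either to enteroblasts, which become absorptive ECs, or to EEs, which secrete peptide hormones. Notch signalling favours the EC fate, proneural factors such as Scute favour the EE fate, and Prospero marks committed EEs. GATA factors, the POU factor Pdm1 (nub) and the nuclear receptor Hnf4 are known regulators of midgut and EC genes. In ATAC-seq, the Tn5 transposase inserts adapters into accessible DNA, and MACS calls a peak where fragments pile up above the local background.

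Reference sequences of selected members come first, as examples. They are 100 bp windows centred on the progenitor summit, taken from the RefSeq assembly of the Release 6 genome (the build named BDGP6), plus strand, 5′ to 3′. Windows on 2L, 3L, 3R and X that touch no annotated exon were eligible. The first set holds the 3 strongest eligible members with a peak in Pros-depleted EEs, and capitals mark matches to the 19 motifs searched, which are spelled out with the motif results.
bbg, chr3L:14427386-14427485, in an intron of bbg 58 bp upstream of a transcription start site (TSS): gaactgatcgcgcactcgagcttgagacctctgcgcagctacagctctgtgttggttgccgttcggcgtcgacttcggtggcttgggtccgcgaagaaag
CG11262, chr3L:12984712-12984811, intergenic: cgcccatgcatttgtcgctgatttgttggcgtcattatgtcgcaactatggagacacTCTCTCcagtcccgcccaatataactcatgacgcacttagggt
CG44815, chrX:9454171-9454270, in an intron of mgl: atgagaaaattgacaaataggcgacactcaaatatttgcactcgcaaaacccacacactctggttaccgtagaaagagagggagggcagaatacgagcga

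The second set holds the 3 strongest eligible members without a peak in Pros-depleted EEs, with capitals for the same motifs.
CG31804, chr2L:17356101-17356200, intergenic: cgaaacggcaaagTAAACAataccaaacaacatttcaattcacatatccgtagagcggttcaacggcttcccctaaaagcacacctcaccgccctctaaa
knrl, chr3L:20621725-20621824, intergenic: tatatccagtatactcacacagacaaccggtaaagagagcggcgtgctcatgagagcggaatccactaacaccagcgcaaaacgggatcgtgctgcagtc
for, chr2L:3632198-3632297, in an intron of for 94 bp upstream of a TSS: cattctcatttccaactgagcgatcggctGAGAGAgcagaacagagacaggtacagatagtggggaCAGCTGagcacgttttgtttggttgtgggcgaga

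The third set holds the 3 strongest eligible members with a peak after Pros depletion that held the GATA letters GATAAG, or CTTATC on the other strand, within the window, which are in capitals. It was chosen after the values were seen, and no set with GATA letters but without such a peak is printed beside it.
heca, chr3R:30352817-30352916, in an intron of heca: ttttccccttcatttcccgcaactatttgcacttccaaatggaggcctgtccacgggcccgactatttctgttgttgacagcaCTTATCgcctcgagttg
Pdp1, chr3L:7845856-7845955, in an intron of Pdp1: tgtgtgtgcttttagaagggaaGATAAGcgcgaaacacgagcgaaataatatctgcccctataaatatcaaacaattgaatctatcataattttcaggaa
spri, chrX:10533663-10533762, in an intron of spri: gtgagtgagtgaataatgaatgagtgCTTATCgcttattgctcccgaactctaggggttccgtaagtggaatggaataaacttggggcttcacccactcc

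The fourth set holds the 3 strongest eligible promoter members, beside those already shown, with the palindrome CGATCG in the window, in capitals. It was also chosen after the values were seen.
how, chr3R:22042078-22042177, 63 bp upstream of a TSS: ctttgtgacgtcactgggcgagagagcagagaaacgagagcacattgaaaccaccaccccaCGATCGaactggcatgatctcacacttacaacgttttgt
Nuak, chr3R:10284197-10284296, 343 bp upstream of a TSS: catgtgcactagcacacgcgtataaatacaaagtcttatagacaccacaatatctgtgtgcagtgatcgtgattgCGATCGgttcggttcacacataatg
RapGAP1, chr2L:7544460-7544559, 83 bp upstream of a TSS: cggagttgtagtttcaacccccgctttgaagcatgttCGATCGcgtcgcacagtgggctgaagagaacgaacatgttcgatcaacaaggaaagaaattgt

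The lists held between 3269 peaks (Ttk-depleted ECs) and 10048 peaks (ECs) on these chromosomes, and median peak widths lay between 129 and 591 bp. Read numbers are unknown, so the depth behind a missing peak is unknown too. The list of Ttk-depleted ECs was the shortest, and a missing peak in it is not read as closed chromatin. Within each list the authors' fold enrichment of a peak over its background was turned into a percentile rank, where 100 is the strongest peak of that list. Ranks order peaks within a list and are not signal on a common scale. Since each population had 1 library, no test was made between populations. Shares are given with 95% Wilson intervals in parentheses, which cover counting error only, and regions of one library are not independent replicates.

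The members were distal regions to a greater extent than the other regions accessible in progenitor cells. Summits within 500 bp of a TSS of a protein-coding gene, called promoters here, made up 352 of the 1503 members, or 23.4% (21.3 to 25.6). This share was 39.9% (37.2 to 42.7) in regions with a peak in progenitor cells only, 63.9% (61.04 to 66.62) in regions of progenitor cells and EEs without ECs, and 39.5% (38.8 to 40.3) in all merged regions. Introns held 47.6% (45.1 to 50.1) of the members, and 29.4% of all merged regions. Intergenic DNA held 22.6% (20.6 to 24.8) of the members, and exons 6.39% (5.26 to 7.74). By contrast, 67.2% (65.4 to 68.9) of the EC-only regions lay in exons. The median distance of a member's summit from the nearest TSS was 2799 bp, against 1502 bp for progenitor-only regions and 126 bp for regions of progenitor cells and EEs without ECs. Members had a median width of 603 bp, against 336 bp in progenitor-only regions and 340 bp in EC-only regions. A member joins peaks of both the progenitor and the EC list, which can widen it by itself. They were spread over the arms, from 8.77% (7.81 to 9.84) of the merged regions of 2R to 11.8% (10.7 to 13.0) of those of 3L.

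**Figure D1:**
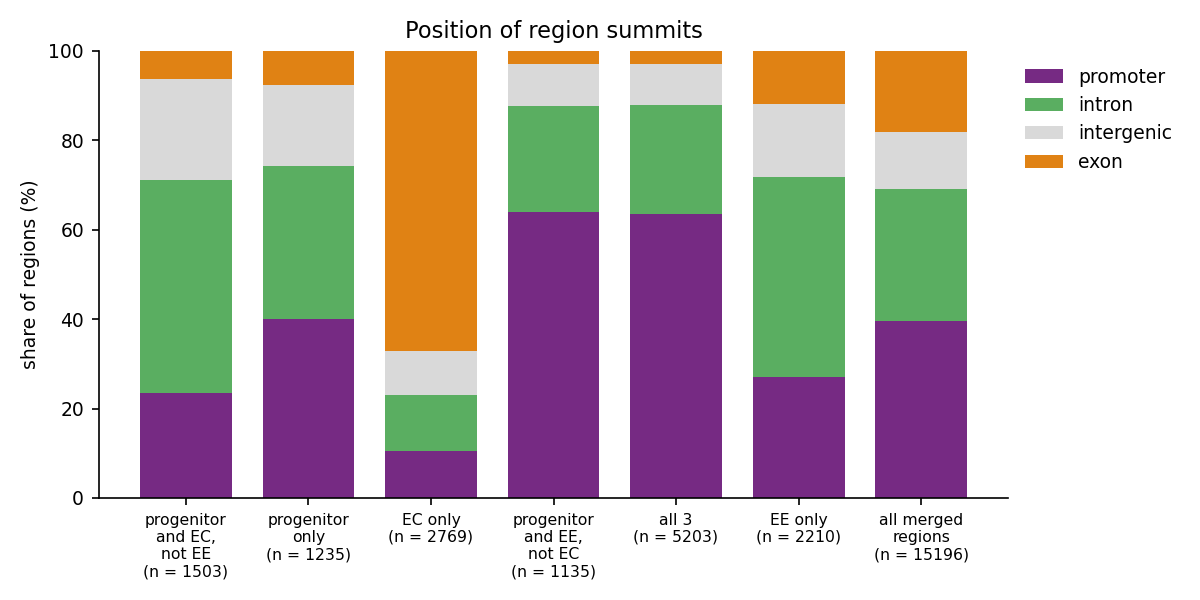
Position of region summits for the members (left), 5 other groups of regions and all merged regions, as stacked shares in percent: within 500 bp of a TSS (promoter), otherwise in an intron, between genes or in an exon. Members were 23.4% promoter and 47.6% intron, whereas 63.9% of regions of progenitor cells and EEs without ECs were promoters.

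The ranks of the members covered nearly the whole of both lists. In the progenitor list they ran from 0.150 to 99.9, with a median of 46.8 (quartiles 24.8 and 69.3), and in the EC list from 0.149 to 99.9, with a median of 55.3 (quartiles 36.4 and 72.5). Members that were strong in one list tended to be strong in the other, with a Spearman's rho of 0.752 over 1503 regions, which share their underlying sequence and are not independent. The order of the 2 medians depended on the threshold, since under a minimum -log10 q of 5 they were 52.7 in progenitor cells and 42.6 in ECs, and under a minimum of 10 they were 59.4 and 42.8. In 71 members both ranks were above 90. The median progenitor rank was far lower in progenitor-only regions (18.1) and the median EC rank in EC-only regions (20.9), so that the members were, on the whole, stronger peaks than those found in one of these cell types alone. Regions with a peak in all 3 cell types were stronger still, at medians of 66.8 in progenitor cells and 69.5 in ECs.

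The weakest members lay at the edge of the peak callers' threshold. The lowest -log10 q of a progenitor peak was 1.77, at Pof, and that of an EC peak was 1.37, at ND-B14.5AL. A -log10 q under 2 was found for 3 members in progenitor cells and for 18 in ECs. Just outside the group, 10 regions with a peak in all 3 cell types had an EE -log10 q under 2, the lowest of which was 1.69 at CG43102. The median distance from a member to the nearest EE peak was 3194 bp, 272 members had one within 1000 bp, and 30 had one within 250 bp.

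The strongest members ranked near the top of both lists. They are named by the protein-coding gene with the nearest TSS, which need not be the gene they act on. The strongest lay at the promoter of bbg (FBgn0087007, a PDZ domain protein of the gut epithelium), on 3L from 14427160 to 14427754, with ranks of 99.9 in both progenitor cells and ECs. It ranked at 35.5 after Pros depletion and 19.0 after Ttk depletion. The second lay between genes, 7345 bp upstream of CG31804 (2L, 17355854 to 17356444), at ranks of 99.7 and 99.8, and had a peak in neither depleted library. The next was also intergenic, 10373 bp upstream of CG11262 (3L, 12984486 to 12985040), at 99.7 in both normal lists. It also ranked high in the depleted lists, at 84.1 after Pros depletion and 61.3 after Ttk depletion. A member in an intron of mgl, which encodes the endocytic receptor Megalin, ranked at 99.9 in progenitor cells and 98.9 in ECs. Its nearest TSS was that of CG44815, and its ranks were 62.7 after Pros depletion and 77.4 after Ttk depletion.

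Among the 12 strongest members, 9 had a peak in Pros-depleted EEs. These also included introns of Rbfox1, an RNA-binding splicing regulator, of CG30089 (nearest TSS Zasp52), of kirre (nearest TSS CG4116) and of heca. The promoters of dar1, a Krüppel-like transcription factor, and of PGRP-SD, a peptidoglycan recognition protein, were among them too. The 3 without a peak were those at CG31804, CG43341 and knrl, a nuclear receptor gene related to knirps. The 12 lay between 875 bp (dar1) and 80200 bp (knrl) from the nearest EE peak, so several of these strong sites stood in long stretches without any EE peak.

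**Figure D2:**
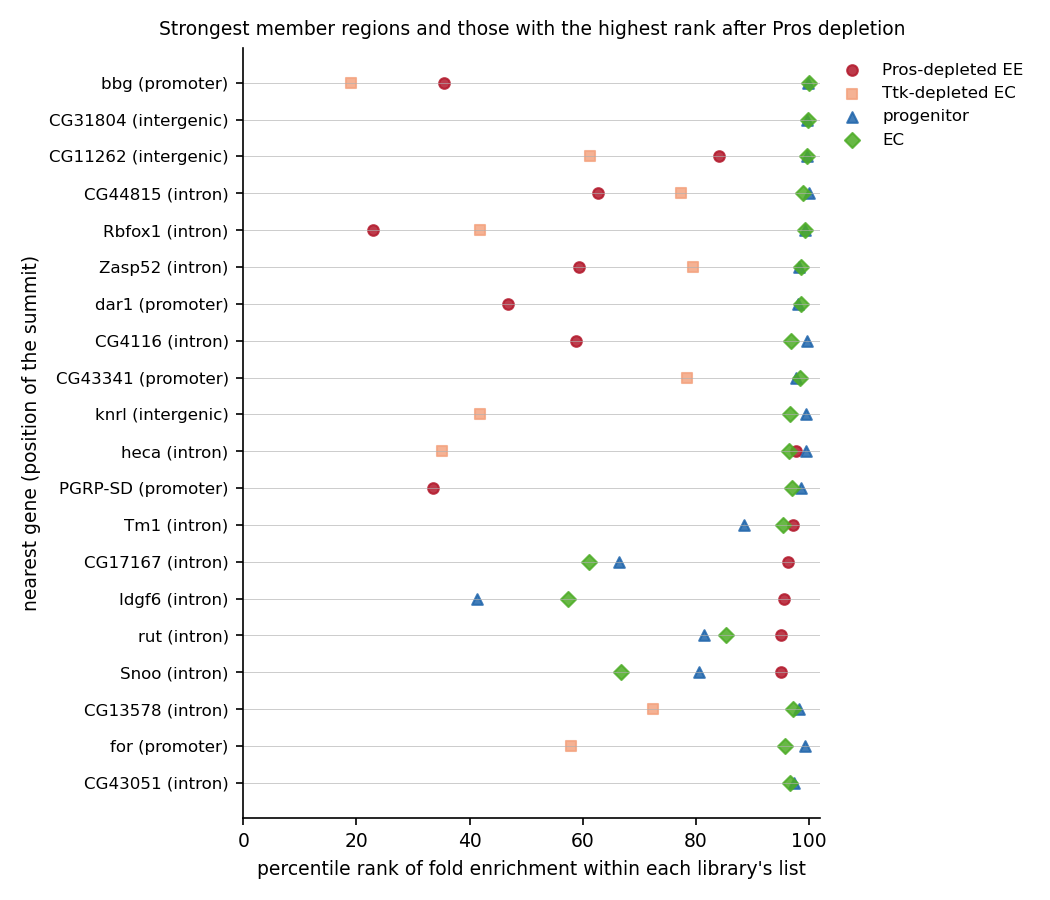
Percentile rank of fold enrichment (x axis, 100 is the strongest peak of a list) of 20 named members, one row each, with a symbol for each library that had a peak there. The rows are the 12 strongest members by the mean of progenitor and EC ranks, then those with the highest rank in Pros-depleted EEs and the strongest without a peak in them; no symbol means no peak.

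After Pros depletion, 572 of the 1503 members had a peak in EEs, or 38.1% (35.6 to 40.5). All merged regions had one in 53.9% of cases, a share that includes the many regions with a peak in normal EEs. The regions set beside the members here are those that, like the members, had no EE peak. Of these, 18.4% (16.3 to 20.6) of the 1235 progenitor-only regions and 3.29% (2.68 to 4.02) of the 2769 EC-only regions had a peak in Pros-depleted EEs. The intervals of the members and of both other groups did not overlap. The EC-only regions differed from the members in other ways too, with 67.2% against 6.39% in exons and a median GC content of 55.7% against 44.3%. Where a normal EE peak was part of the choice, the share differed between groups. It was 95.5% (94.9 to 96.0) for regions of all 3 cell types and 72.3% (69.7 to 74.9) for those of progenitor cells and EEs without ECs. In regions of EEs and ECs without progenitor cells it was 42.6% (36.8 to 48.6). EE-only regions had a share of 36.8% (34.8 to 38.9), close to that of the members. The peaks of members in Pros-depleted EEs were of moderate strength there, with a median rank of 29.3 (quartiles 14.5 and 48.4).

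The difference between members and progenitor-only regions was also seen within classes of progenitor rank. Region widths were not matched in them. By the choice of the groups, members also had a peak in the EC list and progenitor-only regions had none. The part of these differences in the shares was not tested. At progenitor ranks up to 20, 24.0% (19.6 to 29.1) of 304 members and 14.3% (11.9 to 17.2) of 669 progenitor-only regions had a peak in Pros-depleted EEs. Between ranks 20 and 40 these shares were 33.2% (28.4 to 38.5) and 22.2% (18.2 to 26.8). Between ranks 40 and 60 they were 40.7% (35.8 to 45.9) and 26.2% (19.8 to 33.8). Between ranks 60 and 80 they were 40.7% (34.9 to 46.8) and 17.3% (9.38 to 29.7), the last over 52 regions. Above rank 80, 54.7% (48.6 to 60.7) of 254 members had such a peak, and the 9 progenitor-only regions there were too few to set beside them. Against EC-only regions the gap was wider. At EC ranks between 40 and 60, 30.8% (26.6 to 35.3) of members and 5.28% (3.36 to 8.19) of EC-only regions had a peak. Members at EC ranks above 80 had one in 61.6% (55.4 to 67.4) of cases.

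**Figure D3:**
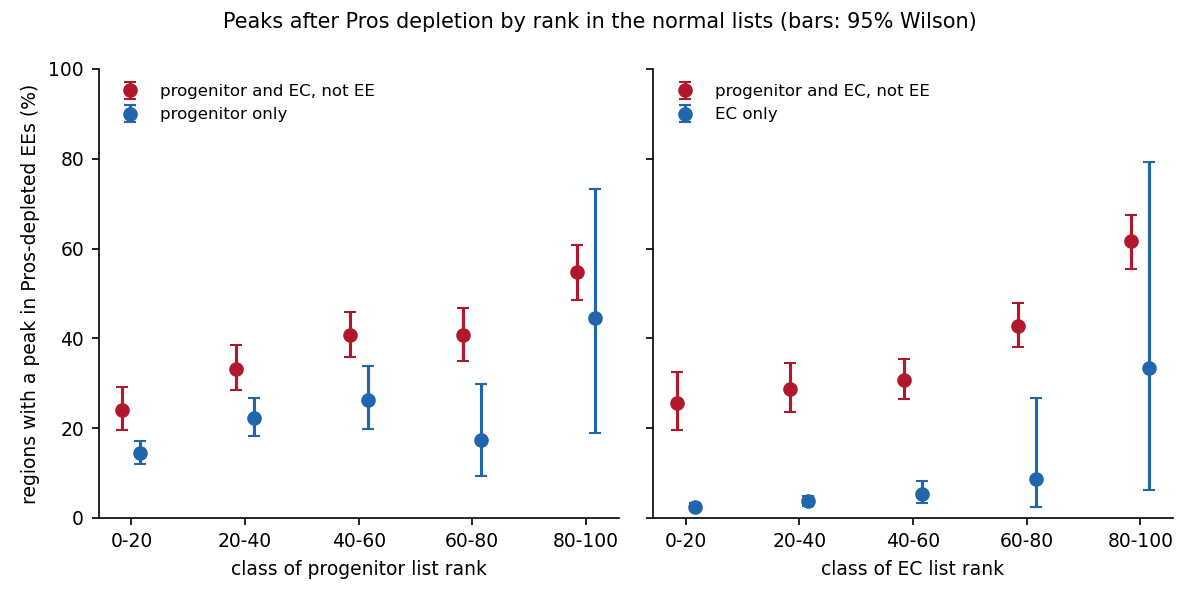
Share of regions with a peak in Pros-depleted EEs (percent, bars are 95% Wilson intervals) by class of rank in the progenitor list (left) and in the EC list (right), for members and for regions with a peak in progenitor cells only or in ECs only. The share rose to 54.7% and 61.6% of members at ranks above 80, and the top points of the other groups rest on 9 and 3 regions.

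Position and the neighbourhood of EE peaks moved with this share to a smaller extent. It was 44.3% (39.2 to 49.5) among members at promoters, 38.7% (35.2 to 42.4) in introns, 35.4% (26.6 to 45.4) in exons and 30.9% (26.2 to 36.0) between genes. Members with an EE peak within 1000 bp had a peak in Pros-depleted EEs in 45.2% (39.4 to 51.2) of cases, and those without one in 36.5% (33.8 to 39.2). Each EE genotype had 1 library, so a difference between libraries and one between genotypes cannot be told apart.

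**Figure D4:**
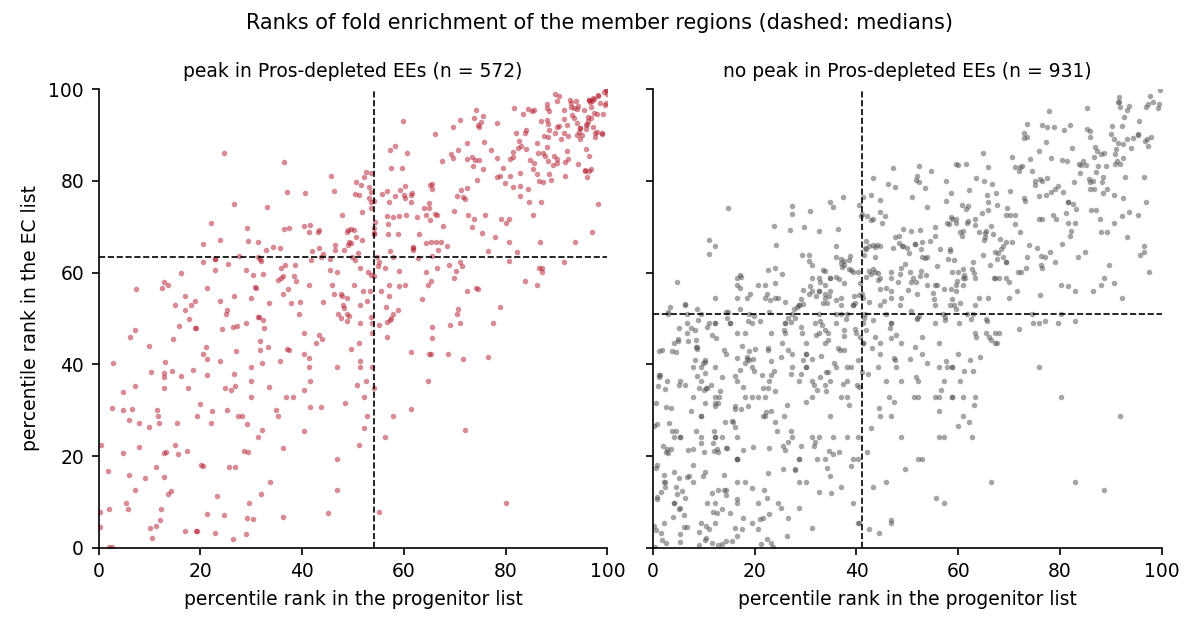
Percentile ranks of the members in the progenitor list (x axis) and the EC list (y axis), for the 572 with a peak in Pros-depleted EEs (left) and the 931 without (right). Dashed lines are the medians, which were 54.2 in progenitor cells and 63.4 in ECs in the left panel and 41.0 and 50.9 in the right one.

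The members that ranked highest in Pros-depleted EEs lay in introns of named genes. An intron of heca (headcase), on 3R from 30352557 to 30353394, held the top one, at rank 97.7 in Pros-depleted EEs, 99.5 in progenitor cells and 96.5 in ECs. Its window is printed in the third set of sequences, with 1 GATA match. An intron of Tm1, a tropomyosin gene (3R, 15297740 to 15298541), ranked at 97.1 in Pros-depleted EEs, 88.5 in progenitor cells and 95.3 in ECs. A further 2 of the 6 stood near the top of the Pros-depleted list and lower within the normal lists. An intron of CG17167 ranked at 96.3 in Pros-depleted EEs, 66.5 in progenitor cells and 61.1 in ECs. An intron of Pgant9, an O-glycosyltransferase gene (nearest TSS Idgf6), ranked at 95.5 in Pros-depleted EEs, 41.3 in progenitor cells and 57.3 in ECs. The remaining members were in introns of rut, an adenylyl cyclase gene, at 95.1 in Pros-depleted EEs, and of Snoo, the fly Sno gene, at 94.99. None of these 6 had an EE peak within 3 kb, and heca alone of them had a peak in Ttk-depleted ECs.

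The strongest members without a peak in Pros-depleted EEs were those at CG31804, CG43341, knrl, CG13578 (in an intron of bs, a serum response factor gene), for and CG43051. The promoter of for, which encodes a cGMP-dependent protein kinase, ranked at 99.2 in progenitor cells and 95.8 in ECs. It had a peak in Ttk-depleted ECs at rank 58.0. Of these 6 members, 4 had a peak in Ttk-depleted ECs, and those at CG31804 and CG43051 had one in neither depleted library. The last lay in an intron of bun, the fly TSC22 gene, and ranked at 97.4 in progenitor cells and 96.7 in ECs.

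In Ttk-depleted ECs, 263 members had a peak, or 17.5% (15.7 to 19.5), where 18.7% of all merged regions had one. The share near that of all regions is not a result about the members. Among regions that also had no EE peak, 3.24% (2.39 to 4.38) of progenitor-only and 1.08% (0.760 to 1.54) of EC-only regions had one, so the order of the 3 groups was the same as after Pros depletion. The members' share in this short list fell to 5.84% under a minimum -log10 q of 5 and 0.978% under a minimum of 10. A peak after Ttk depletion was found for 25.9% (22.5 to 29.6) of members with a peak after Pros depletion and 12.4% (10.4 to 14.6) of the other members. Members with a peak in Pros-depleted EEs were also the stronger ones in the normal lists, at median ranks of 54.2 in progenitor cells and 63.4 in ECs, against 41.0 and 50.9 for the others. In all, 148 members had a peak in both depleted libraries, whereas 816, or 54.3% (51.8 to 56.8), in neither.

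Motifs were searched as letters on both strands, in 300 bp centred on the summit of each region. For factors of the midgut and its cell fates these were GATAAG for GATA factors, CAGGTG for the Snail family that includes Escargot, CAGCTG for achaete-scute proteins and TGGGAA for Su(H), the DNA-binding partner of Notch. For signalling they were TTCNNNGAA for STAT and GGAATG for scalloped, the partner of Yorkie. The AP-1 site was searched as TGA, any 1 base, then TCA. For developmental factors they were TGTTTA for forkhead proteins, ATGCAAAT for POU factors, TTTATG for caudal, ACAATG for Sox factors, AACCGGTT for grainyhead, AAGTCCA for HNF4, AGGTCA as a nuclear receptor half-site and CACGTG as an E-box. The repressor Ttk69 was searched as GGTCCT. Promoter elements were searched as GAGAGA for the GAGA factor, TATCGATA for the DRE and GGTCACAC for M1BP. Matches of different motifs may overlap, and a match is a description of the sequence, not a bound site.

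Several motifs differed in share between members and all merged regions. Ttk69 letters were found in 2.33% (1.68 to 3.22) of members and 5.06% (4.72 to 5.42) of all merged regions. Those of the Snail family were found in 8.65% (7.33 to 10.2) and 13.8% (13.3 to 14.4). Caudal letters were found in 29.0% (26.8 to 31.4) of members and 22.3% (21.7 to 23.0) of all merged regions. Ttk69, Snail family and caudal letters were found in 2.996% (2.18 to 4.102), 9.23% (7.74 to 10.97) and 29.7% (27.2 to 32.3) of progenitor-only regions. Each of these intervals overlapped that of the members, so these letters did not set the members apart from progenitor-only regions. EC-only regions held Ttk69 letters in 11.8%, Snail family letters in 25.6% and caudal letters in 9.79% of cases. The DRE letters were found in 2.196% (1.57 to 3.07) of members and 3.70% (3.41 to 4.01) of all merged regions, and those of M1BP in 1.53% (1.02 to 2.29) and 4.11% (3.80 to 4.43). Both are elements of housekeeping promoters, and within promoters alone they were found in 5.97% and 5.40% of members, against 8.29% and 9.39% of all merged regions. Outside promoters DRE letters were found in 1.04% (0.597 to 1.81) of members and 0.696% (0.546 to 0.888) of all merged regions. In regions of progenitor cells and EEs without ECs, 63.9% of which were promoters, DRE and M1BP letters reached 9.25% and 9.87% over all positions. Outside promoters these regions held them in 1.71% and 1.46% of cases. The POU letters were found in 6.12% (5.02 to 7.45) of members and 3.69% (3.397 to 3.997) of all merged regions, but in 5.34% (4.22 to 6.74) of progenitor-only regions. Forkhead letters were found in 31.7% (29.4 to 34.1) of members, 36.7% (34.0 to 39.4) of progenitor-only regions and 25.6% (24.96 to 26.35) of all merged regions. The base composition of the windows differed between groups, with a median GC content of 44.3% in members, 41.3% in progenitor-only regions and 55.7% in EC-only regions, and its part in these shares was not tested.

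GATA letters separated the members by what was found after Pros depletion. They were present in 26.6% (24.4 to 28.9) of members and 23.0% (22.3 to 23.6) of all merged regions. EE-only regions held them in 28.7% of cases, progenitor-only regions in 23.2% and EC-only regions in 8.81%. Outside promoters they were found in 26.8% of members, 25.9% of progenitor-only regions and 34.8% of regions of all 3 cell types. The letters were thus not particular to the members. Members with a peak in Pros-depleted EEs held them in 35.3% (31.5 to 39.3) of cases, and those without in 21.3% (18.8 to 24.0). The same held at promoters, at 35.3% and 18.4%, and outside them, at 35.3% and 22.0%. Put the other way, 50.5% (45.6 to 55.4) of the 400 members with GATA letters had a peak in Pros-depleted EEs, against 33.5% (30.8 to 36.4) of the 1103 without. With 1 match the share was 47.2% (41.8 to 52.7) and with 2 matches it was 65.2% (53.4 to 75.4), over 69 members. With 3 or more it was 54.5% (28.0 to 78.7), over 11 members. The median GC content of members with and without a peak in Pros-depleted EEs was 44.0% and 44.3%.

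The order was the same in each class of progenitor rank, although the intervals overlapped between ranks 20 and 60. At ranks up to 20, 39.4% (28.5 to 51.5) of members with GATA letters and 19.7% (15.2 to 25.3) of those without had such a peak. Above rank 80 the shares were 70.4% (59.0 to 79.8) and 48.6% (41.5 to 55.8). Between ranks 20 and 40 the shares were closest, at 37.4% (28.1 to 47.6) and 31.7% (26.1 to 37.8). Other groups showed the same order. Regions with a peak in EEs only kept a peak after Pros depletion in 44.9% (41.1 to 48.8) of cases with GATA letters and 33.6% (31.3 to 36.0) without. For progenitor-only regions the shares were 24.4% (19.8 to 29.7) and 16.6% (14.3 to 19.1), and for EC-only regions they were 4.92% (2.84 to 8.40) and 3.13% (2.52 to 3.88), with intervals that overlapped. None of the other 18 motifs split the members' share with intervals that lay apart. For POU letters the order was opposite, at 27.2% (19.1 to 37.0) of 92 members with them and 38.8% (36.3 to 41.3) of those without, and these intervals overlapped.

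**Figure D5:**
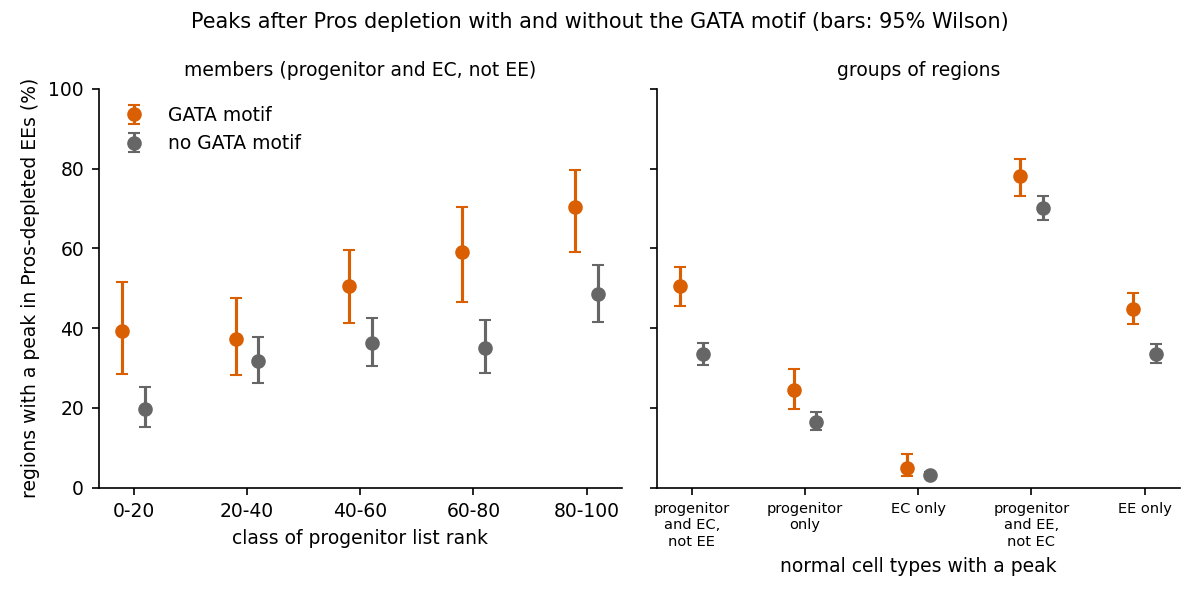
Share of regions with a peak in Pros-depleted EEs (percent, bars are 95% Wilson intervals) with and without the GATA letters within 300 bp centred on the summit, for members by class of progenitor rank (left) and for 5 groups of regions (right). Among members the shares were 50.5% with the letters and 33.5% without, and the order was the same in each class and each group plotted.

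All words of 6 letters were then counted in the same windows. From a set of 1968 more frequent words, the 10 with the highest ratio of their share in members to that in all merged regions were ranked. Each of the 10 was held by at least 5% of members, and these shares are a description of words picked for them. Of the 10, 9 held a run of at least 4 G or C, led by CCCCCC with 14.2% of members and 7.69% of all merged regions. At least 1 of these 9 words was found in 57.4% of members, 42.8% of progenitor-only regions, 31.2% of regions of progenitor cells and EEs without ECs, and 39.0% of all merged regions. Outside promoters the shares were 63.7% of members, 55.0% of progenitor-only regions and 45.7% of all merged regions. They were 55.0% there in regions of all 3 cell types, 47.3% in those of progenitor cells and EEs without ECs, and 31.0% in EC-only regions. The shares were close with and without a peak after Pros depletion, at 56.1% of members with a peak in Pros-depleted EEs and 58.2% of those without.

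The other word was the palindrome CGATCG, and its share was highest at promoters of members. It was found in 88 of the 352 promoter members, or 25%, and in 7.37% of all promoters among the merged regions. The share was 11.3% at promoters of EC-only regions, 7.71% at those of progenitor-only regions, 6.66% at those of regions of all 3 cell types, 3.52% at those of EE-only regions and 2.62% at those of progenitor cells and EEs without ECs. Outside promoters 7.47% of members and 5.90% of all merged regions held it. Of its 106 matches at promoter members, 61 lay upstream of the TSS and 60 within 100 bp of it. Of the 484 matches at all promoters, 244 lay upstream and 249 within 100 bp. It was about as frequent at promoter members with a peak in Pros-depleted EEs (23.7%) as at those without (26.02%).

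The genes of these promoter members included bbg, dar1, PGRP-SD, for, fus, wg, wb and how. At wg, which encodes the ligand Wingless, the member (2L, 7306813 to 7307364) ranked at 97.9 in progenitor cells and 89.6 in ECs, and it had no peak in Pros-depleted EEs but one at rank 61.3 in Ttk-depleted ECs. At wb, a laminin alpha gene, it ranked at 91.4 in progenitor cells and 95.5 in ECs, and at 46.8 in Pros-depleted EEs. At how, an RNA-binding protein gene whose window is printed in the fourth set, it ranked at 88.6 in progenitor cells and 91.0 in ECs, and at 6.59 in Pros-depleted EEs. These genes were named after their values were seen, as examples of strong promoter members with the word.

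The members were nearest to the TSSs of 1145 of the 13945 protein-coding genes, or 8.21%, and 237 genes were nearest to at least 2 members. The gene with the most members was Eip75B, the ecdysone-induced nuclear receptor E75, which had 7 of them on 3L between 17942528 and 18012345. The strongest of these, in an intron, ranked at 89.7 in progenitor cells and 98.9 in ECs, and at 46.8 in Pros-depleted EEs. Altogether 3 of the 7 had a peak in Pros-depleted EEs. Tet, the fly TET dioxygenase gene, bun and CHES-1-like, a forkhead gene, had 6 members each. Of the 6 at bun, 2 had a peak after Pros depletion and none after Ttk depletion. Glut4EF, a transcription factor gene, and CheA75a, a gene of the CheA family, were 2 of the 7 genes with 5 members, and none of these 10 had a peak in either depleted library. The members next to CheA75a lay 8077 to 23274 bp from its TSS, between genes. Long genes and wide gaps hold more regions of any kind, as Eip75B was nearest to 30 merged regions in all.

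In the list of GATA and gut identity factors, 8 of 12 genes were nearest to a member, and 15 of their 52 merged regions were members, or 28.8% (18.3 to 42.3), against 9.89% of all merged regions. The POU genes nub and pdm2 were both among them. At nub, a member in an intron (2L, 12588873 to 12590187) ranked at 65.6 in Pros-depleted EEs, 30.3 in progenitor cells and 59.5 in ECs, and the other (12591427 to 12592235) ranked at 7.55, 26.9 and 17.7. The pdm2 member lay at a promoter, at 48.8 in progenitor cells and 54.5 in ECs, without a peak in Pros-depleted EEs. Both members at GATAe, a GATA factor of the endoderm, had a peak in Pros-depleted EEs, at ranks 20.5 and 5.26. Hnf4 was nearest to 4 members, 3 of them at promoters, and 1 of the 4 had a peak in Pros-depleted EEs, at rank 5.04. The GATA factor gene srp had an intronic member at 37.3 in progenitor cells and 76.5 in ECs, without a peak in Pros-depleted EEs. The forkhead gene fkh was nearest to 3, all intergenic.

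Of the EE programme, 1 of 20 genes for EE peptides and secretion was nearest to a member (ITP), with 1 of their 39 merged regions a member, or 2.56% (0.454 to 13.2), an interval that holds the 9.89% of all regions. Of the 7 EE markers (pros, Tk, AstC, Rab3, NPF, Dh31 and CCHa1) none was nearest to a member. This was 0 of 24 merged regions, which allows a share of up to 12.5%, taken as 3 counts of the total. When members within a gene or its 3 kb flanks were counted, 1 of the 7 EE markers (Rab3) and 4 of the 20 genes for EE peptides and secretion held one. The EC markers had members at nub, pdm2 and Myo61F, 3 of 5, and not at Myo31DF or mex1. Of the progenitor markers Delta (Dl) and fkh had members, and esg, Sox100B, klu and Sox21a had none by this rule. By the count with flanks, Sox100B and klu held 2 each. At EE fate factors, members were found at sc and phyl, 2 of 10 genes. The sc member at the promoter (X, 395659 to 396650) of this proneural gene ranked at 86.1 in progenitor cells and 88.2 in ECs. Its ranks were 35.5 after Pros depletion and 82.9 after Ttk depletion. The phyl member, in the gene of an adaptor for the degradation of Tramtrack, ranked at 85.8 in progenitor cells and 78.2 in ECs, with a peak in neither depleted library.

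Among ecdysone response genes, 8 of 10 were nearest to a member, with 20 of their 129 merged regions members, or 15.5% (10.3 to 22.7). Beside Eip75B, the strongest were at Eip78C, with ranks of 93.0 in progenitor cells, 94.3 in ECs and 59.5 in Pros-depleted EEs, at ftz-f1, with 95.7, 82.0 and 16.2, and at br, with 93.5 and 73.2 and no peak in Pros-depleted EEs. These encode nuclear receptors and a BTB zinc finger protein.

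In the Notch list, 8 of 24 genes were nearest to a member and 12 of their 42 merged regions were members, or 28.6% (17.2 to 43.6). The member at the promoter of spdo, a Notch regulator of asymmetric division, ranked at 92.3 in progenitor cells and 84.7 in ECs, and at 31.1 in Pros-depleted EEs. An intronic member of the receptor gene N ranked at 86.7 and 85.2 in these normal lists, without a peak in Pros-depleted EEs. At Delta, the ligand gene, an intronic member ranked at 82.7 in progenitor cells, 78.9 in ECs and 23.0 in Pros-depleted EEs. The strongest member at fng, a glycosyltransferase that modifies Notch, ranked at 58.4 in progenitor cells and 65.2 in ECs.

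In the EGF receptor list, 8 of 17 genes were nearest to a member, and 15 of 84 merged regions were members, or 17.9% (11.1 to 27.4). The ligand gene vn had a member 3999 bp upstream, at 88.2 in progenitor cells, 95.8 in ECs and 36.7 in Pros-depleted EEs. The inhibitor gene aos had one at its promoter, at 86.0 and 89.6, and the ETS factor gene pnt an intronic one, at 82.0 and 92.1, both without a peak in Pros-depleted EEs. The member nearest to cic, a repressor gene, ranked at 88.3 in progenitor cells and 79.6 in ECs. In the Wingless list 5 of 16 genes (wg, fz2, fz3, sgg and nkd) were nearest to a member, and 10 of 55 merged regions were members, or 18.2% (10.2 to 30.3). The receptor gene fz3 had an intronic member with ranks of 82.9 in Pros-depleted EEs, 80.7 in progenitor cells and 62.5 in ECs, each within its own list.

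Genes of integrins and the basement membrane had members at 6 of 14 genes, and 9 of 39 merged regions were members, or 23.1% (12.6 to 38.3). The strongest was in an intron of trol, the perlecan gene, at 94.7 in progenitor cells, 91.5 in ECs and 91.5 in Pros-depleted EEs. The laminin genes LanA, LanB1 and LanB2 all had members. That at the LanB2 promoter ranked at 84.7 in progenitor cells and 84.6 in ECs, and at 5.22 in Pros-depleted EEs. Both members at LanA had such a peak, and neither of those at LanB1.

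The remaining lists had few members each, but also few merged regions. Their shares ran from 3.13% (0.554 to 15.7) for JAK-STAT genes to 16% (6.40 to 34.7) for lipid metabolism. Each interval held the 9.89% of all merged regions. For BMP genes 3 of 38 merged regions were members, led by Mad, the Smad gene, at 88.1 in progenitor cells, 96.6 in ECs and 45.3 in Pros-depleted EEs. For insulin and Tor genes it was 3 of 30, led by an intron of foxo at 98.0, 94.6 and 44.0 in these lists. For Hippo genes 4 of 34 regions, at kibra and Myc, were members, and none had a peak in Pros-depleted EEs. The numbers were 4 of 25 for lipid metabolism (ACC, FASN2 and mdy), 5 of 56 for septate junction and polarity genes (baz and crb), 2 of 27 for JNK and AP-1 genes (puc and egr), 1 of 10 for Imd genes (PGRP-LB) and 1 of 32 for JAK-STAT genes (dome). The lists are small and were compiled with earlier results known, so these shares describe the lists and carry no test.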

How the data were processed

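Per the study's methods and the submitters' processing notes, the authors trimmed reads with Cutadapt, mapped them to BDGP6 with bowtie2 (version 2.2.4 in the notes), removed duplicates, multimapped and blacklisted reads, and ran MACS3 on each library. The deposited lists give, for each peak, a fold enrichment (a ratio over background), a -log10 p and a -log10 q, all computed by the authors. The files held 0 columns of samples outside the series.

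Peaks on the chromosome arms were merged when they overlapped or touched, and a region took the highest fold of its peaks in each list. Position and sequence were read at the summit of the progenitor peak where there was one, otherwise at that of the EC, EE or depleted peak. The sequence sets and the split of GATA matches by rank were added after the data were seen. Genes and TSSs came from Ensembl release 115 (13945 protein-coding genes), sequences from RefSeq. All peak ends lay within the reference arm lengths. Dl and Tor are Delta and mTor in this annotation. Python 3.11.15, numpy 2.4.6, pandas 2.3.3 and matplotlib 3.10.9 were used. Merging, classes and the motif search were tested on simulated lists. With 1 library per population no test was made.

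Members, gene lists and motifs were chosen with earlier results of these data known. Named were the genes nearest to the 12 strongest members, to the 6 with the highest rank in Pros-depleted EEs and to the 6 strongest without a peak there, the 6 genes nearest to most members, up to 4 genes per list, and the cell type markers. Other names were chosen after their values were seen. The alternatives were stricter peak thresholds, equal numbers of peaks, merging within 250 bp, no EE peak within 1 kb, an overlap of 50%, other promoter and motif windows, ranks of -log10 p, and gene bodies.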

Additional observations from a re-analysis of the deposited data

How the results depend on the processing

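Under 58 combinations of a result and an alternative, 37 values counted as unchanged and 21 moved. A share or a median rank counted as unchanged when it stayed within the interval of the reported value. The number of members has no such interval, and under a broader limit it counted as unchanged in each alternative. It lay between 1125 and 1478 under the alternatives run, against the 1503 reported. With equal numbers of peaks in the lists, 43.1% of members, 23.3% of progenitor-only and 5.12% of EC-only regions had a peak after Pros depletion, 19.5% of members had one after Ttk depletion, and the median EC rank of members was 52.2. With a -log10 q of at least 5, the share after Pros depletion was 16.1% in progenitor-only and 2.56% in EC-only regions, 5.84% of members had a peak after Ttk depletion, and median ranks were 52.7 in progenitor cells and 42.6 in ECs. With a -log10 q of at least 10, these shares after Pros depletion were 32% of members, 11.7% and 7.94%. The EC-only share of 7.94% had a wide interval there (3.44 to 17.3). At this threshold the share of members after Ttk depletion was 0.978%, and median ranks were 59.4 and 42.8. At both thresholds the median progenitor rank lay above the median EC rank, the opposite of the order with all peaks. In each of these settings the share after Pros depletion was higher in members than in progenitor-only and EC-only regions. Without members near an EE peak (1 kb) the median progenitor rank was 49.2. Promoters made up 19.6% of members with a window of 250 bp and 28.8% with 1 kb, and GATA letters were found in 21.1% with a window of 200 bp and 33.3% with 500 bp. Of the gene list results, 19 stayed within their intervals when gene bodies with 3 kb flanks were used and 1 moved. The intervals of such small lists are wide, so large changes could stay within them. The JAK-STAT list, for example, went from 10% to 30% of genes, within 1.79 to 40.4. The 1 that moved was the share of all protein-coding genes, from 8.21% to 12.5%. An overlap of 50% between progenitor and EC peaks does not apply to progenitor-only and EC-only regions, so it was not run there. The depth of the libraries is unknown, a weak peak may be missed in any list, and the short Ttk-depleted list limits its shares most.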
